A study of Homo sapiens with 4 samples.

Results

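Genes of glycolysis and of the response to low oxygen were followed on 4 Affymetrix arrays in SW620, an established line of human colon cancer cells. The genes are a list of 44 written by pathway role, and of these 41 were analysed here and the other 3 were not analysed here. The 41 comprise 22 glycolytic enzymes and glucose transporters and 19 genes of the hypoxia-inducible factor (HIF) pathway, among 19775 genes named on the arrays. Where a gene had several probe sets the brightest on average stood for it, and 40 passed the filter on dim genes. A CD133+ clone was measured on 2 arrays and a CD133- clone on 2 arrays. CD133 is the surface protein encoded by PROM1. Per the labels, both clones were grown from single cells of the same line sorted with magnetic beads, were cultured in the same medium with serum under air, and were purified by CD133 a second time before RNA extraction. No low-oxygen treatment is named for either clone. With 1 clone per group, CD133 status and clone cannot be told apart, and whether a clone's 2 arrays are separate cultures is not said in the labels, so each p-value reflects array-to-array spread alone, and that spread may be technical.

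Glycolysis turns glucose into pyruvate, and lactate dehydrogenase reduces pyruvate to lactate when respiration does not take it up. Phosphofructokinase is the main regulated step, and PFKFB enzymes set the level of its bisphosphate activator. HIF is a pair of proteins, an oxygen-labile alpha subunit (HIF1A or EPAS1) and the stable partner ARNT. In oxygen, prolyl hydroxylases of the EGLN family mark the alpha subunit for VHL and destruction, and HIF1AN blocks its activation domain. When oxygen falls HIF binds the core sequence ACGTG or GCGTG near genes for glycolysis, blood vessel growth, mitochondrial turnover and collagen modification. HIF1A is controlled largely at the protein level, which these arrays do not measure.

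Array-wide facts frame the values. PROM1, the sorted antigen, had log2 signals of 8.46 and 8.73 on the CD133+ arrays, against 3.31 and 3.35 on the CD133- arrays. The CD133- values lie below 3.75, the level under which genes were left out as dim, so the size of the PROM1 difference is not given. Across genes, the replicate correlation was 0.992 for either clone, and it was 0.977 to 0.988 between a CD133+ and a CD133- array. The ACTB control probe sets, whose 3' minus 5' log2 signal grows as RNA is degraded, gave 0.71 and 1.92 for the CD133+ pair and 1.18 and 0.92 for the CD133- pair. CD133+ replicate 2 was the highest. The same measure for GAPDH was 0.097 and 0.090 for the CD133+ pair and 0.017 and 0.026 for the CD133- pair, small on every array but with no overlap between the clones, and its part in the results was not tested. PFKFB3 and ANKRD37 were the members that passed. With CD133+ replicate 2 left out, the log2 difference was -1.19 for PFKFB3, and that of ANKRD37 stayed positive. Leaving out other arrays lost calls, as given below for each gene. The part of RNA quality in either call was not tested. Of 9 colon epithelial markers 8 passed the level filter and KRT20 did not. The fibroblast markers COL1A1, COL1A2, COL3A1, DCN and LUM, the endothelial PECAM1 and VWF and the leukocyte CD3D also passed it, while PTPRC and CDH5 did not. The filter left out only the dimmest 20% of genes, so passing it does not identify a cell type. No tested marker of epithelium, leukocytes, endothelium or fibroblasts passed the test between clones. In bulk RNA, fewer cells of a type and less RNA per cell cannot be told apart.

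Of the 40 tested members, 1 was higher in CD133+ cells, ANKRD37, and 1 was lower, PFKFB3. That is 5% of the members at a limma adjusted p under 0.05, where the same rule called 3.65% of the 15820 genes tested (1.31% higher, 2.34% lower). Of all calls 35.9% were higher, against 21.1% with no normalization added and 11.3% when each array was centred on its median. At an unadjusted p under 0.05 there were 8 of 40 members, 4 higher and 4 lower, against 20.6% of all genes (10.8% higher, 9.83% lower). An absolute log2 difference of 0.25 was reached by 7 of 40 (17.5%), against 40.7% of all genes, and 4 of 40 (10%) reached 0.5, against 12.9%. The median standard error was 0.115 for members and 0.178 for all genes. The part of this precision in those shares was not tested. The 2 CD133+ arrays lay wholly above or below the 2 CD133- arrays in 24 of 40 members (60%), 11 above and 13 below, and in 51.6% of all genes, 30.4% above and 21.2% below.

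**Figure D1:**
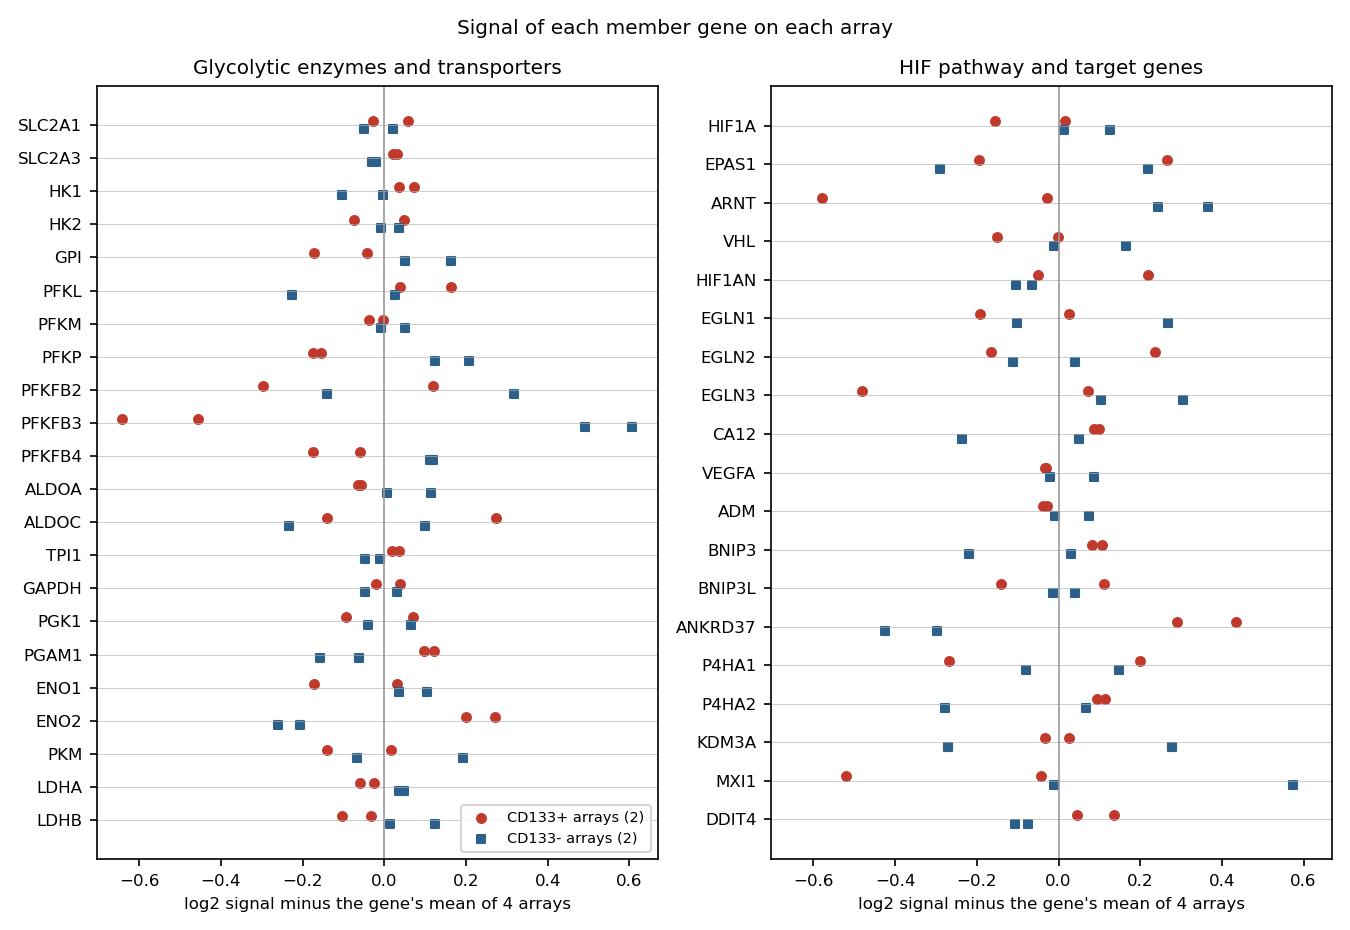
Log2 signal on each array for the 41 members, as the distance from that gene's mean over the 4 arrays (x axis). Red circles are the 2 CD133+ arrays and blue squares the 2 CD133- arrays, with glycolytic genes in pathway order on the left and HIF genes on the right. PFKFB3 and ANKRD37 have the widest gaps between the groups, while SLC2A1, GAPDH and PGK1 overlap.

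PFKFB3 was the member with the largest difference and the only glycolytic gene that passed. It makes the kinase-dominant form of the enzyme that raises the activator of phosphofructokinase, and it is a known HIF target. Its 1 probe set had log2 signals of 5.32 and 5.50 on the CD133+ arrays, against 6.45 and 6.56 on the CD133- arrays. All CD133+ values were about 1 log2 unit under the CD133- values, with no overlap. The means were 5.41 ± 0.13 in CD133+ and 6.51 ± 0.082 in CD133- cells (SD, n = 2 each), and PFKFB3 fell by 1.10 on the log2 scale (SE 0.21, 95% interval -1.57 to -0.62, 2.14-fold lower, limma adjusted p = 0.0296). The direction held without any 1 array, but the adjusted p was 0.0872 when CD133+ replicate 1 was left out, 0.0949 for CD133- replicate 1 and 0.0686 for CD133- replicate 2. Over all settings it ran from 0.00244 to 1. It was 0.0713 when variance was not allowed to follow the level, and 0.0757 when all probe sets were tested one by one.

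The paralogs of PFKFB3 had smaller differences that did not pass. PFKFB4, another HIF-responsive isoform, averaged 6.24 ± 0.081 in CD133+ and 6.47 ± 0.0049 in CD133- cells (SD, n = 2 each), a log2 difference of -0.23 (95% interval -0.67 to 0.21, limma adjusted p = 0.528). Its dimmer probe set had the opposite sign, at 0.27. PFKFB2, the isoform best known from heart, averaged 7.14 ± 0.30 in CD133+ and 7.31 ± 0.32 in CD133- cells, a difference of -0.18 (95% interval -0.68 to 0.33). Of its 4 probe sets 2 were negative and 2 positive, from -0.45 to 0.42. The difference between PFKFB3 and its paralogs was not tested.

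Because PFKFB3 and ANKRD37 are the members that passed, the stretches at their starts are shown with the ACGTG form of the HIF core marked. The windows of 300 bases span each RefSeq start (GRCh38.p14, plus strand, 5′ to 3′), and capitals mark every ACGTG on either strand. Overlapping hits form CACGTG, the E-box that MYC-family proteins and MXI1's partner MAX also bind. PFKFB3 has 2 such windows on chromosome 10, at chr10:6144671-6144970 with no ACGTG and at chr10:6202682-6202981 with 1 site. The GCGTG form was not searched for or marked, and the upstream PFKFB3 window includes CACGC, which is that form on the other strand. The ANKRD37 window, chr4:185396591-185396890, holds 2 sites.
PFKFB3, upstream start: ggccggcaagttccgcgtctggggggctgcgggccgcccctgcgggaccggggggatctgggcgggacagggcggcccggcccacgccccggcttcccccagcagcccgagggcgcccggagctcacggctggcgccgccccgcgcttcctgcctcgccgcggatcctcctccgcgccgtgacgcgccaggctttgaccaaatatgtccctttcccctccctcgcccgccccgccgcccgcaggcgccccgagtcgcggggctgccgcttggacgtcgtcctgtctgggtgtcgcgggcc
PFKFB3, downstream start: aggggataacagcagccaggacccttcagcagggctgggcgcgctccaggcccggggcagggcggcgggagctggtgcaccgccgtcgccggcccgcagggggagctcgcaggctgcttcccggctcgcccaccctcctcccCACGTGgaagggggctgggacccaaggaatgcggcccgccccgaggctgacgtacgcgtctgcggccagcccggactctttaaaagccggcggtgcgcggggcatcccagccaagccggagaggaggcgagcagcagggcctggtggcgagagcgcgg
ANKRD37: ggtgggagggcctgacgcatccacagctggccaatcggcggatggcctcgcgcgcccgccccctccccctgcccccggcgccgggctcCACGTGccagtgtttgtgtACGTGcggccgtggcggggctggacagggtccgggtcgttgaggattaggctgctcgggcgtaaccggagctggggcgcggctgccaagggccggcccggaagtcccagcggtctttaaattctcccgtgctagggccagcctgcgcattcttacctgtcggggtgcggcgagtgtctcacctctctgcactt
Over the members, 36 had at least 1 window in the RefSeq table, and 19 of these (52.8%) held ACGTG in a window, against 4518 of 15843 protein-coding genes (28.5%). The share was 12 of 20 glycolytic genes and 7 of 16 HIF genes. PFKFB3, which was lower, and ANKRD37, which was higher, both hold the motif. A match describes these letters only and does not show binding, and genes with several starts had more chances to match.

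Among the 18 tested members listed as HIF genes, ANKRD37 had the largest difference. It encodes a small ankyrin-repeat protein and is a direct HIF target. Its brighter probe set had log2 signals of 9.16 and 9.02 on the CD133+ arrays, against 8.43 and 8.30 on the CD133- arrays. Both CD133+ arrays lay above both CD133- arrays. The means were 9.09 ± 0.10 in CD133+ and 8.36 ± 0.090 in CD133- cells (SD, n = 2 each), and ANKRD37 rose by 0.72 on the log2 scale (SE 0.12, 95% interval 0.45 to 1.0, 1.65-fold higher, limma adjusted p = 0.0212). The dimmer probe set had 4.40 and 4.26 on the CD133+ arrays against 4.14 and 4.14 on the CD133- arrays, the same direction at a difference of 0.19 that did not pass. The call depended on the scaling, with a difference of 0.62 (adjusted p = 0.0844) in the values as deposited and 0.55 (0.163) with each array centred on its median. It was also lost without CD133- replicate 1 (0.0834), without CD133- replicate 2 (0.0688), and with the mean of both probe sets (0.46, adjusted p = 0.154), within a range of 0.00135 to 1 over all settings.

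**Figure D2:**
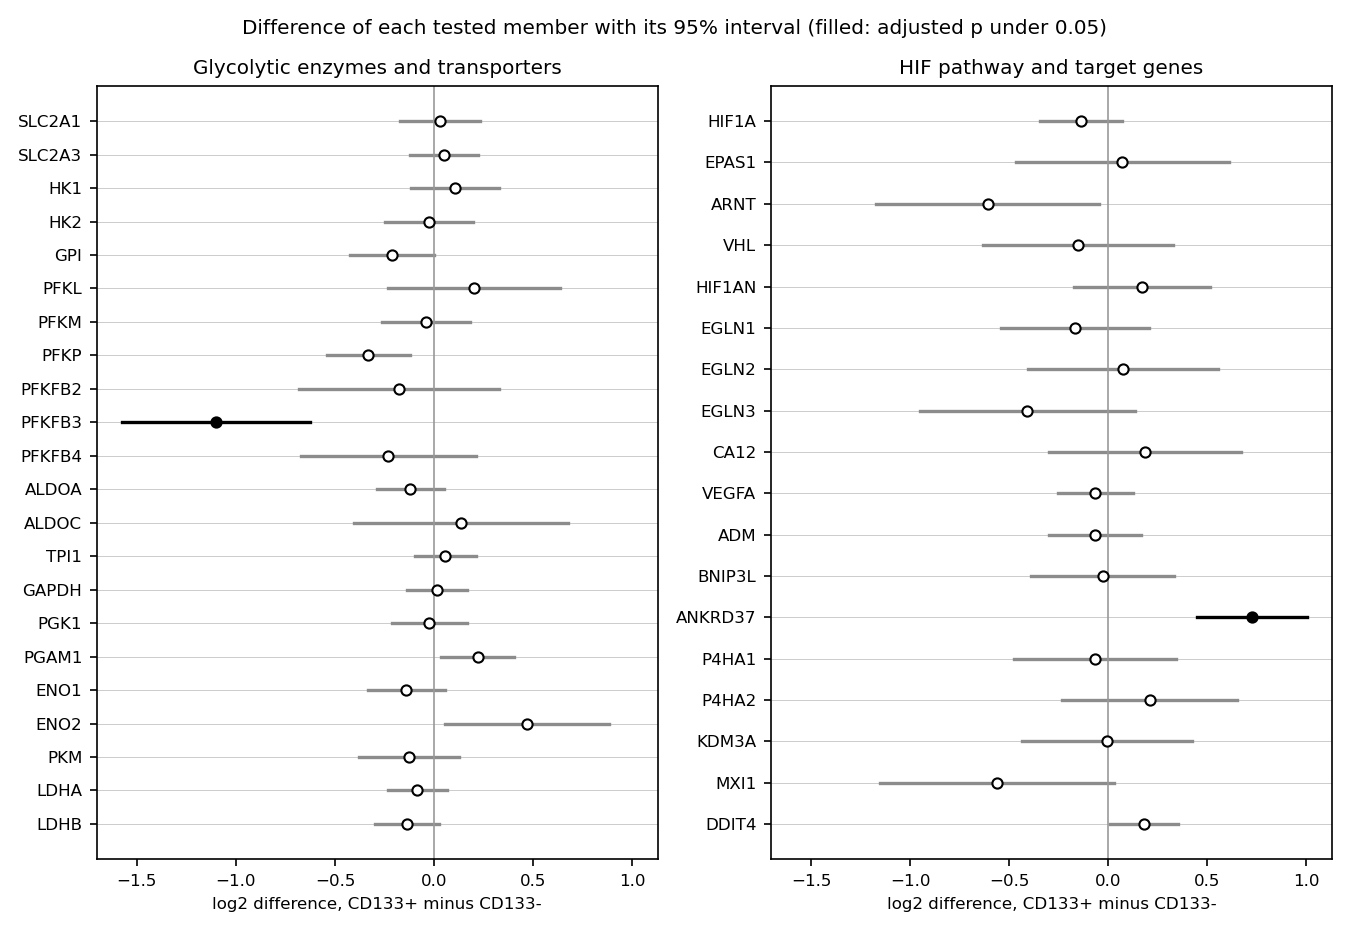
Log2 difference, CD133+ minus CD133- (x axis), for the 40 tested members. Points are the fitted differences and lines their 95% intervals from limma, with filled points for adjusted p under 0.05. The intervals of PFKFB3 (-1.57 to -0.62) and ANKRD37 (0.45 to 1.0) are the filled ones, and most glycolytic intervals are short and cross 0.

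Entry of glucose into the pathway showed small differences. SLC2A1, the widely expressed glucose transporter GLUT1, averaged 10.50 ± 0.061 in CD133+ and 10.47 ± 0.051 in CD133- cells (SD, n = 2 each), a difference of 0.029 (95% interval -0.17 to 0.23, limma adjusted p = 0.883). SLC2A3, the high-affinity transporter GLUT3, had a difference of 0.052 (95% interval -0.12 to 0.22, limma adjusted p = 0.733). For both transporters the brightest probe set stood alone in its sign. The other SLC2A1 probe set was at -0.36 and the other 2 SLC2A3 probe sets at -0.23 and -0.34, none past the threshold. The 2 probe sets of SLC2A3 with lower values each had both CD133+ arrays below both CD133- arrays. Hexokinases trap glucose in the cell. HK1, the housekeeping isoform, was at 0.11 (95% interval -0.11 to 0.33) and HK2, the inducible one, at -0.027 (95% interval -0.25 to 0.20). All 3 HK2 probe sets were negative, between -0.11 and -0.027.

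The phosphofructokinase subunits and the isomerase before them also did not pass. GPI, glucose-6-phosphate isomerase, averaged 10.39 ± 0.092 in CD133+ and 10.60 ± 0.078 in CD133- cells (SD, n = 2 each), a difference of -0.21 (limma adjusted p = 0.242). PFKP, the platelet-type subunit, averaged 9.80 ± 0.014 in CD133+ and 10.13 ± 0.060 in CD133- cells, a difference of -0.33 (95% interval -0.54 to -0.12, limma adjusted p = 0.0945). Its groups did not overlap, and the interval, which is not adjusted for the number of genes, lies below 0. PFKL, the liver-type subunit, was at 0.20 (95% interval -0.23 to 0.63) and PFKM, the muscle-type subunit, at -0.041 (95% interval -0.26 to 0.18). A dim second probe set of PFKP was at 0.18 and overlapped between the groups.

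The later steps of the pathway and lactate formation had no gene that passed. ALDOA, the main aldolase, averaged 12.28 ± 0.0053 in CD133+ and 12.40 ± 0.076 in CD133- cells (SD, n = 2 each), a difference of -0.12 (95% interval -0.29 to 0.048). Its paralog ALDOC was at 0.13 with a wider interval, -0.41 to 0.67. TPI1, triose phosphate isomerase, was at 0.056 (95% interval -0.098 to 0.21), with all 3 probe sets positive. GAPDH, often used as a control gene, averaged 13.93 ± 0.042 in CD133+ and 13.92 ± 0.055 in CD133- cells, a difference of 0.016 (95% interval -0.13 to 0.17), and its 3 probe sets lay between -0.040 and 0.016. PGK1, phosphoglycerate kinase, was at -0.024 (95% interval -0.21 to 0.17) in its brightest probe set, while 4 of its other 5 lay between -0.43 and -0.22 and the fifth at 0.037.

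PGAM1, phosphoglycerate mutase, averaged 11.19 ± 0.017 in CD133+ and 10.97 ± 0.068 in CD133- cells (SD, n = 2 each), a difference of 0.22 (95% interval 0.034 to 0.40, limma adjusted p = 0.180). ENO2, the neuronal enolase, averaged 6.92 ± 0.050 in CD133+ and 6.45 ± 0.038 in CD133- cells, a difference of 0.47 (95% interval 0.055 to 0.88, limma adjusted p = 0.193). Both genes had CD133+ arrays above CD133- arrays and neither passed. ENO1, the ubiquitous enolase, was at -0.14 (95% interval -0.33 to 0.056). A second ENO1 probe set read 12.24 and 11.33 on the CD133+ arrays against 12.24 and 12.29 on the CD133- arrays. Its low value was on CD133+ replicate 2, which also had the widest ACTB 3' to 5' gap, and the part of RNA quality in this value was not tested. PKM, pyruvate kinase, was at -0.13 in its brightest probe set (95% interval -0.38 to 0.13) and 0.35 in the other. LDHA and LDHB, which make the lactate dehydrogenase subunits, were at -0.084 (95% interval -0.23 to 0.065) and -0.14 (95% interval -0.30 to 0.027), with both CD133+ arrays below both CD133- arrays in each.

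Over all 22 glycolytic genes, limma called 0 higher, 1 lower and 21 neither, with 2 higher and 3 lower at an unadjusted p under 0.05. The unadjusted counts are 5 of 22, where 20.6% of all genes passed the same threshold. At the adjusted threshold 3.65% of all genes were called. The 95% interval lay wholly within 0.5 log2 units of 0 for 15 of 22 (68.2%), against 31.4% of all genes. The median standard error was 0.0922 for the glycolytic genes and 0.178 for all genes. The part of this precision, and of signal level, in that share was not tested. The median difference was -0.034, where the median of all genes was 0.058, with 9 positive and 13 negative signs. Scaling moved these values together: the glycolytic median was -0.093 and the all-gene median 0.028 in the values as deposited, and -0.17 and -0.051 with centred arrays. Centring turned the small positive differences of SLC2A1, SLC2A3, HK1, PFKL, ALDOC, TPI1 and GAPDH negative, and that of SLC2A1 was negative in the deposited values too. Glycolytic genes share sequence with many processed pseudogenes, most of all GAPDH, and probes of the _x_at and _s_at kind can detect related transcripts. The table does not separate such signals.

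**Figure D3:**
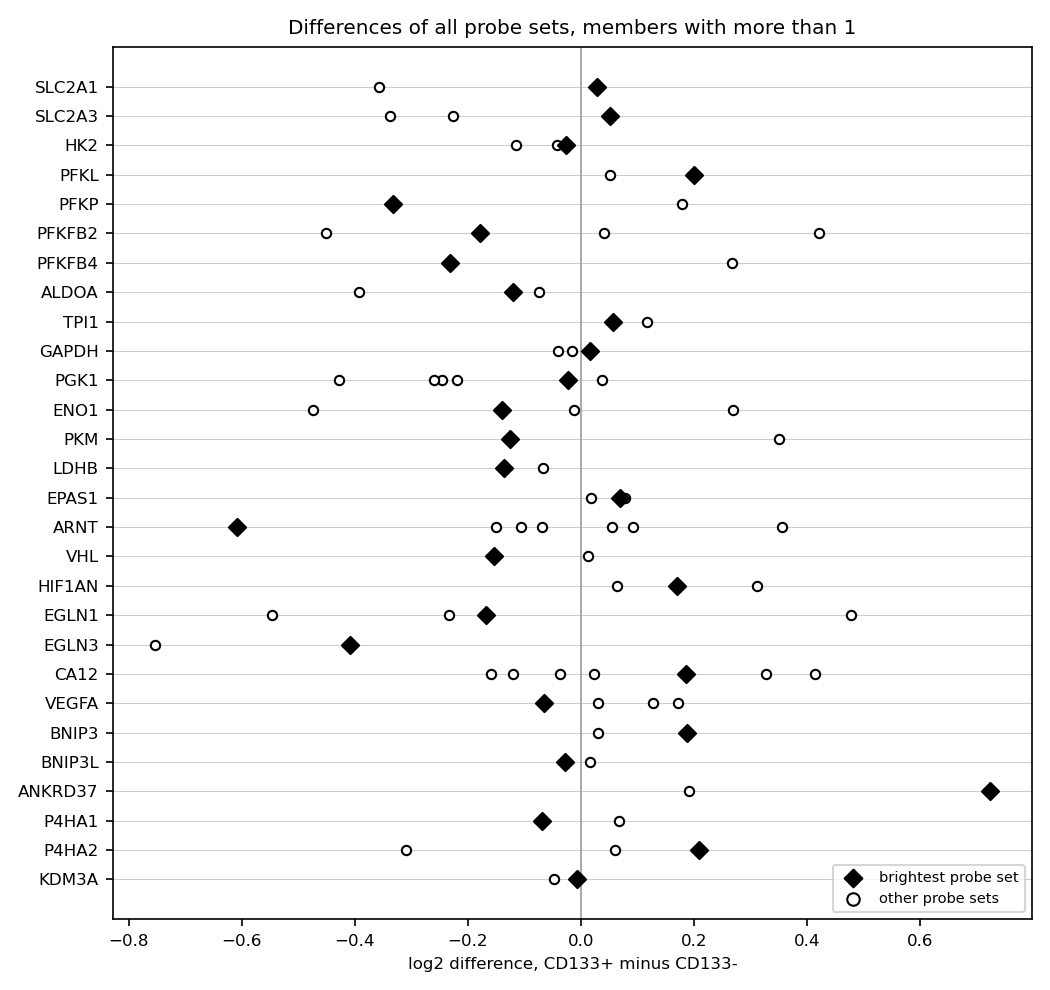
Log2 difference, CD133+ minus CD133- (x axis), of each probe set for the 28 members with more than 1. Black diamonds are the brightest probe sets, used in the comparison, and open circles the others. In 11 of the 28 every probe set had 1 sign. ARNT and PGK1 show brightest probe sets apart from most of the others.

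The genes of oxygen sensing and of HIF itself were not called. HIF1A averaged 11.40 ± 0.12 in CD133+ and 11.54 ± 0.079 in CD133- cells (SD, n = 2 each), a difference of -0.14 (95% interval -0.34 to 0.067, limma adjusted p = 0.418). EPAS1, which encodes HIF-2 alpha, read between 3.85 and 4.41 on all arrays, close to the level of 3.75 below which genes were left out, and its groups overlapped. ARNT, the shared partner subunit, had log2 signals of 4.93 and 5.48 on the CD133+ arrays, against 5.87 and 5.75 on the CD133- arrays. Its CD133+ arrays were lower but lay 0.55 apart, nearly as far as the difference between the groups, -0.61 (SE 0.25, 95% interval -1.17 to -0.044, limma adjusted p = 0.211). The other 6 ARNT probe sets ranged from -0.15 to 0.36. The one at 0.36 had the opposite direction to the brightest, with both CD133+ arrays (3.79 and 3.51) above both CD133- arrays (3.33 and 3.26). Its values were mostly under the level of 3.75, and it did not pass (limma adjusted p = 0.326 over all probe sets).

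VHL, the substrate-binding part of the ligase that removes hydroxylated HIF, was at -0.15 (95% interval -0.63 to 0.33). The prolyl hydroxylases EGLN1 and EGLN2 were at -0.17 (95% interval -0.54 to 0.21) and 0.073 (95% interval -0.41 to 0.55). The 4 EGLN1 probe sets disagreed, from -0.55 to 0.48. Groups did not overlap in the probe set at either end of that range, and none passed. EGLN3, the hydroxylase most strongly induced by HIF in many cells, averaged 4.58 ± 0.39 in CD133+ and 4.99 ± 0.14 in CD133- cells (SD, n = 2 each), a difference of -0.41 (95% interval -0.95 to 0.13, limma adjusted p = 0.364). Its second, dimmer probe set was at -0.75 and did not pass (adjusted p = 0.123 over all probe sets). HIF1AN, the asparagine hydroxylase, was at 0.17 (95% interval -0.17 to 0.51), with all 3 probe sets positive. Of these 8 genes limma called 0 in either direction, against 3.65% of all genes. With the brightest probe sets, ARNT alone had an unadjusted p under 0.05, against 20.6% of all genes.

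The other tested members listed as HIF targets did not pass. VEGFA, the blood vessel growth factor, had a log2 difference of -0.065 (95% interval -0.25 to 0.12), while its other 3 probe sets were positive, up to 0.17. ADM, the vasodilator peptide adrenomedullin, was at -0.066 (95% interval -0.30 to 0.17). DDIT4, an inhibitor of mTOR signalling also known as REDD1, averaged 12.01 ± 0.063 in CD133+ and 11.83 ± 0.022 in CD133- cells (SD, n = 2 each), a difference of 0.18 (95% interval 0.011 to 0.35, limma adjusted p = 0.217). CA12, a membrane carbonic anhydrase, was at 0.19 (95% interval -0.30 to 0.67), and its 7 probe sets ran from -0.16 to 0.41.

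MXI1, a MAX partner that opposes MYC, had log2 signals of 6.70 and 6.22 on the CD133+ arrays, against 7.31 and 6.73 on the CD133- arrays. The lower CD133- array and the higher CD133+ array were almost level, and within each clone replicate 1 was above replicate 2. The difference of -0.56 (SE 0.26, 95% interval -1.15 to 0.029) did not pass (limma adjusted p = 0.265). The collagen prolyl hydroxylase subunits P4HA1 and P4HA2 were at -0.069 (95% interval -0.48 to 0.34) and 0.21 (95% interval -0.23 to 0.65). The 3 P4HA2 probe sets ran from -0.31 to 0.21. KDM3A, a histone demethylase, was at -0.0064 with CD133- arrays 0.55 apart (7.79 and 8.34), and BNIP3L, a mitophagy receptor, was at -0.029 (95% interval -0.39 to 0.33). Its paralog BNIP3, a strong HIF target in many cells, read 3.64 and 3.67 on the CD133+ arrays, against 3.34 and 3.59 on the CD133- arrays, under the filter on dim genes, so it has no test.

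Over the 18 tested HIF genes, limma called 1 higher, 0 lower and 17 neither, with 2 higher and 1 lower at an unadjusted p under 0.05. The unadjusted counts are 3 of 18, against 20.6% of all genes. At the adjusted threshold 3.65% of all genes were called. The median difference was -0.047, against 0.058 for all genes. Groups did not overlap in 10 of the 18 (55.6%), 5 above and 5 below. Over all genes that share was 51.6%, 30.4% above and 21.2% below. The HIF median was -0.14 with no normalization added and -0.21 when arrays were centred. It was 0.029 when CD133- replicate 1 was left out. Centring turned the differences of HIF1AN and P4HA2 negative. Intervals were wider than for glycolysis, with 7 of 18 within 0.5 log2 units of 0 and a median standard error of 0.183, against 0.0922 for glycolytic genes.

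Other genes of the same pathways came from a list of 67, of which 58 were tested. Of these 3 were higher in CD133+ cells, 2 were lower and 53 did not pass. That is 8.62% called, against 3.65% of all genes (1.31% higher, 2.34% lower). The 21 tested HIF targets of this list held 3 of the higher and 1 of the lower calls (19.0% called). Among the tested members listed as HIF targets, 1 of 10 was called. The list was chosen with earlier results of these data known, and the part of that choice in these shares was not tested. NDRG1, a stress-induced protein, had log2 signals of 8.25 and 8.39 on the CD133+ arrays, against 6.83 and 7.10 on the CD133- arrays. PDK1, a kinase that inhibits the pyruvate dehydrogenase complex, had 6.92 and 6.86 on the CD133+ arrays, against 8.58 and 8.29 on the CD133- arrays. Both are classical HIF targets, and they differed in opposite directions. NDRG1 differed by 1.35 (SE 0.16, 95% interval 0.98 to 1.72, 2.55-fold higher, limma adjusted p = 0.00936). PDK1 differed by -1.54 (SE 0.16, 95% interval -1.91 to -1.17, 2.90-fold lower, limma adjusted p = 0.00816). The other 2 PDK1 probe sets were at -0.67, with separate groups, and -0.11, with groups that overlapped, and neither passed.

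The other 2 HIF targets that passed are dioxygenase-fold proteins. JMJD6, a lysyl hydroxylase, had log2 signals of 10.59 and 10.64 on the CD133+ arrays, against 9.87 and 9.83 on the CD133- arrays. It rose by 0.76 (SE 0.087, 95% interval 0.56 to 0.96, 1.69-fold, limma adjusted p = 0.00931), and the second of its 4 probe sets was at 0.67 with separate groups. The other 2 JMJD6 probe sets were at 0.37 and -0.094, with groups that overlapped. KDM4B, a histone demethylase, had 8.64 and 8.89 on the CD133+ arrays, against 7.87 and 8.02 on the CD133- arrays, and rose by 0.82 (SE 0.14, 95% interval 0.50 to 1.14, limma adjusted p = 0.0225). All 8 KDM4B probe sets were positive, from 0.096 to 0.82. The KDM4B call was lost in 8 of 16 settings, among them centred arrays (0.61, adjusted p = 0.0922), the mean of its probe sets (0.37, 0.257), the brightest probe set of no _s_at or _x_at kind (0.48, 0.174), all probe sets one by one (0.0752), no trend (0.0959) and CD133- replicate 1 left out (0.130). With the mean of probe sets JMJD6 (0.43, adjusted p = 0.137) and PDK1 (-0.77, 0.0643) did not pass either.

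PYGL, the liver-type glycogen phosphorylase that releases glucose units from glycogen, had log2 signals of 8.34 and 8.26 on the CD133+ arrays, against 8.93 and 8.98 on the CD133- arrays. It fell by 0.65 (SE 0.12, 95% interval -0.92 to -0.39, 1.57-fold, limma adjusted p = 0.0243). PYGL was the 1 called among 10 tested genes of glycogen and gluconeogenesis, where the same rule called 3.65% of all genes. It did not pass when all probe sets were tested one by one (limma adjusted p = 0.0838) or when variance was not allowed to follow the level. The call was lost without CD133- replicate 1 (adjusted p = 0.137) and without CD133- replicate 2 (0.0898). Of the 16 other isozymes and partner proteins of glycolysis limma called 0, with 3 higher and 2 lower at an unadjusted p under 0.05, and of the 11 other HIF regulators it called 0, with 0 at an unadjusted p under 0.05. Over all genes that share was 20.6%.

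**Figure D4:**
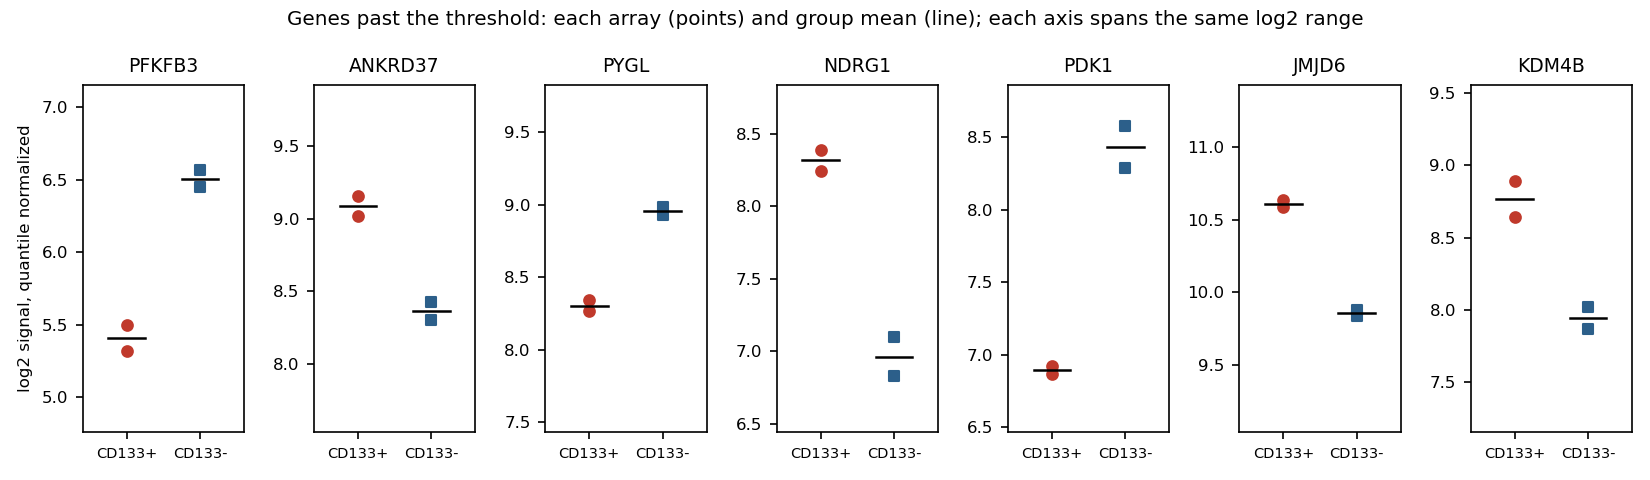
Log2 signal after quantile normalization (y axis, each panel spanning the same range) on the 2 CD133+ arrays (red circles) and the 2 CD133- arrays (blue squares), with group means as lines. PFKFB3, PYGL and PDK1 lie lower in CD133+ cells and ANKRD37, NDRG1, JMJD6 and KDM4B higher, with no overlap of the groups in any of the 7 genes.

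**Figure D5:**
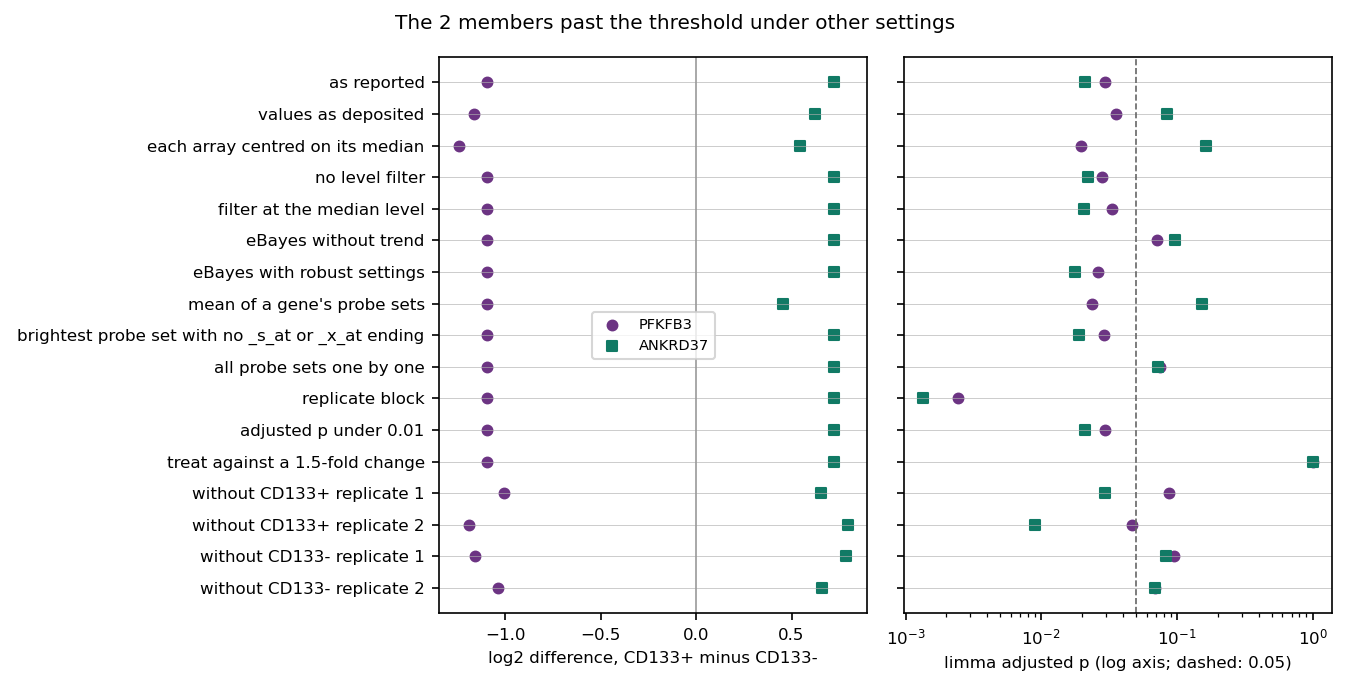
Log2 difference, CD133+ minus CD133- (left), and limma adjusted p on a log axis (right) for PFKFB3 (purple circles) and ANKRD37 (green squares) as reported and under 16 other settings. The signs are the same in every setting shown, and points right of the dashed line at 0.05 lost the call, as did both genes at the stricter threshold of 0.01. A replicate block gave the smallest adjusted p for both genes.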

How the data were processed

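The deposited table held log2 probe-set signals for 54675 probe sets on 4 arrays, with no value columns of other samples. Per the submitters' processing notes the authors used Affymetrix Expression Console, and the sources used here give neither its version nor its normalization. Arrays have no read depth, and their number limits the precision. After leaving out 62 control probe sets, the 4 arrays were quantile normalized, because their deposited medians spanned 0.144. Probe sets naming 1 gene (41091) were named through the platform annotation, and 19735 of 19775 genes matched RefSeq by gene ID. A gene took its brightest probe set. The dimmest 20% of genes, below a log2 level of 3.75, were left out.

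Groups followed the CD133 label. Tests used limma 3.58.1 under R 4.3.3 (lmFit, eBayes with trend), with Benjamini-Hochberg adjustment over 15820 genes and a threshold of 0.05. An exact permutation test of 2 against 2 arrays cannot go below p = 0.333, so calls rest on variance shared across genes. In simulated data, changes of 1 log2 unit were called in 82 of 92 genes and of 2 log2 units in 93 of 93, with 8 false calls. Those values were drawn independently for each gene and array, with the spread that limma fitted and no effect shared between arrays. On the real arrays replicate differences correlated between the clones (r = 0.43), so the simulated counts do not measure performance on these data. Promoter windows came from RefSeq (GRCh38.p14) and were searched in Python 3.11.15. The members and lists were chosen with earlier results of these data known. Values in all arrays are given for members called or differing by at least 0.5, and from the other genes only called ones are named. Alternatives covered scaling, level filter, variance model, probe set choice, the replicate number as a block, thresholds and leaving out each array.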

Additional observations from a re-analysis of the deposited data

How the results depend on the processing

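No member or other named gene changed sign where it was called in either setting: of the alternatives for single genes, 686 kept their side of the threshold, 38 lost a call and 4 gained one. Among uncalled members, 9 changed sign with centred arrays, 7 with the mean of probe sets, 1 in the values as deposited, 1 without probe sets of _s_at or _x_at kind, and 5 or 6 with any 1 array left out. All genes gave 207 higher and 370 lower calls (35.9% higher), 87 higher in the values as deposited (21.1% of 413), 52 with centred arrays (11.3% of 459), 4 and 8 without trend, 74 and 173 with the mean of probe sets, 29 and 67 with all probe sets one by one, 15 and 35 at adjusted p under 0.01, and 4 and 3 with treat. Without 1 array the counts ran from 45 to 235 higher and from 77 to 471 lower, both lowest without CD133- replicate 1, and 129 were higher without CD133- replicate 2. The all-gene median was 0.058 as reported and -0.051 with centred arrays. Glycolytic genes had 1 lower call, which became 0 without trend, with all probe sets, at 0.01 and with treat, and ran from 0 to 1 without 1 array. HIF genes had 1 higher call, which became 0 in the values as deposited, with centred arrays, without trend, with the mean of probe sets, with all probe sets, at 0.01 and with treat, and ran from 0 to 1 without 1 array. The other pathway genes had 3 higher and 2 lower calls, 0 and 0 without trend and with treat, 1 and 4 with the mean of probe sets, 1 lower with all probe sets and at 0.01, and from 2 to 3 higher and from 1 to 3 lower without 1 array. The stricter thresholds make fewer calls by construction, and the cause of the other changes was not tested.

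The labels give the clones the same replicate numbers without saying that a number marks a shared culture or day. The difference between replicates 1 and 2 correlated between the clones with r = 0.43 across 15820 genes, which are not independent. With the replicate number as a block, 1564 genes were higher and 1463 lower. Glycolytic genes then had 2 higher (PGAM1 and ENO2) and 2 lower (PFKFB3 and PFKP), HIF genes 1 higher and 1 lower (MXI1), and the other pathway genes 8 higher and 8 lower. With an array left out, a lone array is assumed to vary like the other group.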
